A study of Mus musculus with 15 samples.

Results

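The 100 protein-coding genes described here had their lowest level in epiblast-like cells (EpiLCs) and were back at a higher level in primordial germ cell-like cells (PGCLCs). They were selected on measured values. Each of 21951 protein-coding genes, of 55536 annotated genes in all, was given a score, the lowest of log2(mean CPM + 1) in ESCs, D2PGCLCs, D4PGCLCs and D6PGCLCs minus the value in EpiLCs, where CPM is the count scaled to the total of its library. The 100 highest scores were taken, so that the drop in EpiLCs and the return in PGCLCs are how the genes were chosen and are given without a test.

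The cells came from 1 clonal mouse ESC line with a Stella-eGFP reporter and 4 transgenes that doxycycline switches on, Nanog, Tfap2c, Prdm1 and Prdm14 (4TF). ESCs were grown in the naive state with LIF, 1 μM of the MEK inhibitor PD0325901 and 3 μM of the GSK3 inhibitor CHIR99021. EpiLCs were collected after 48 h in activin A and bFGF, and both groups carried the transgenes without doxycycline. PGCLCs were Stella-eGFP+ cells sorted on days 2, 4 and 6 from EpiLC aggregates that received 2 μg/ml doxycycline without germ cell cytokines, in a different, serum replacement-based medium. Each of the 5 groups had 3 replicates. The labels do not say whether replicates came from separate cultures, and p-values therefore measure only the spread between these samples.

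Naive ESCs resemble the epiblast before implantation and are held by a network of transcription factors that includes Esrrb, Klf and Tfcp2l1 family members. Conversion to EpiLCs is known to shut down much of this network while formative genes such as Fgf5 and Otx2 come on, and germ cell specification is known to restore part of it.

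Library totals were 22555021 to 42725681 counts. The 6 formative markers summed to 2677 to 2881 CPM in EpiLCs and 112 to 230.0 CPM in the other groups, and the 6 PGC markers to 901.5 to 1043 CPM in PGCLCs and 123 to 218 CPM in ESCs and EpiLCs. All 6 markers of both lists were above 1 CPM in the groups they name. The 7 feeder fibroblast markers summed to 22.4 to 23.5 CPM in EpiLCs, 7.76 to 8.43 CPM in ESCs and at most 2.18 CPM in PGCLCs. In EpiLCs 4 of them were above 1 CPM and in ESCs 2, with Col3a1, Postn and Dcn at 0 in ESCs. In D6PGCLC replicate 1, 18061 genes had a count, against 21103 to 24343 in the 14 other libraries, and results that changed without it are named beside them. Counts do not separate the transgenes from the endogenous genes, and none of the 4 transgenes was among the 100. Nanog came nearest, at rank 1747, with mean CPM of 694 in ESCs, 507.5 in EpiLCs and 813 on day 2, 777 on day 4 and 796 on day 6.

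The scores ran from 3.86 for Ttc28 to 1.61, with a median of 1.95. A score above 0 was found for 5462 of the protein-coding genes (24.9%) and a score above 1 for 426. Just inside the threshold were genes such as Ankrd33b and Plekhg3 with 1.61 each, and just outside it Ceacam1, Calcoco2 and Hscb, also with 1.61, so the edge of the list separates genes of nearly equal score. Every one of the 3 EpiLC replicates lay below every one of the 12 other libraries for all 100 genes, which the choice on group means favours. How many other genes had this separation was not counted. Summed over the 100 genes, the level was 7942 to 7971 CPM in ESCs and 1124 to 1170.1 CPM in EpiLCs, and it was 6747 to 8088 CPM on day 2, 8135 to 8162 CPM on day 4 and 7535 to 8200 CPM on day 6. In bulk samples, fewer cells expressing a gene and less RNA per cell cannot be told apart. The median gene stood at 16.1% of its ESC level in EpiLCs, and at 89.3% on day 2 and 107% on days 4 and 6. These shares are of CPM, which is scaled to library totals alone. The model used below also scales libraries by TMM factors, 0.933 to 0.939 in EpiLCs, 0.999 to 1.01 in ESCs and 1.06 to 1.10 in D6PGCLCs. In that model the median log2 fold change from ESCs on day 6 was -0.01.

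**Figure D1:**
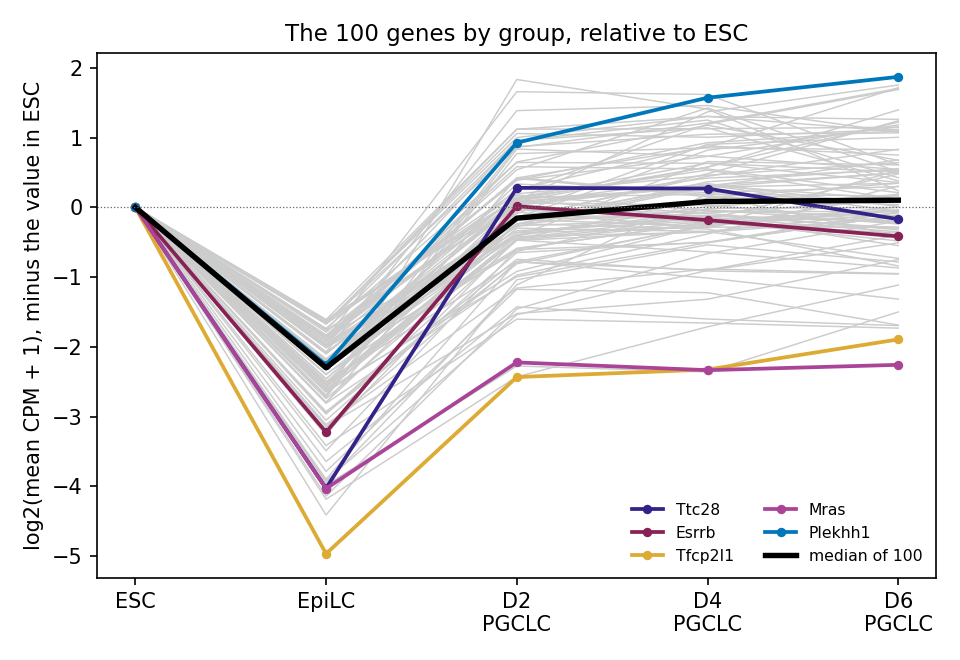
Level of each of the 100 genes (grey lines) in the 5 groups as log2(mean CPM + 1) minus the value in ESCs, with the median in black and 5 genes in colour. All lines dip in EpiLCs, as the selection requires, and then fan out in PGCLCs, from Plekhh1 above the ESC level to Tfcp2l1 and Mras below it.

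The lowest of the 4 groups other than EpiLCs was ESCs for 36 genes, D2PGCLCs for 36, D4PGCLCs for 7 and D6PGCLCs for 21. The highest was ESCs for 39 genes, D6PGCLCs for 31, D4PGCLCs for 17 and D2PGCLCs for 13. When the genes were chosen on 2 replicates of each group, all 100 scored above 0 in the replicate left out, with medians of 1.96, 1.85 and 1.87 for replicates 1, 2 and 3. Over all protein-coding genes the medians in the same replicates were -0.03, -0.0046 and -0.0046, and the share above 0 in single replicates was not counted. Of the genes so chosen, 73, 69 and 74 were also among the 100 highest scores in left-out replicates 1, 2 and 3. Whether the replicates came from separate cultures is not known, so this describes only their likeness.

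The genes lay on all autosomes but chromosome 19, with 11 on chromosome 4, 10 each on chromosomes 5 and 11, 8 on chromosome 7 and 7 each on chromosomes 2, 6 and 12. Chromosome 4 holds 6.05% of all protein-coding genes, chromosome 5 5.74%, chromosome 11 7.47%, chromosome 7 9.22%, chromosome 2 8.40%, chromosome 6 5.07% and chromosome 12 2.93%. No member lay on chromosome 19, which holds 719 of the protein-coding genes (3.27%), or on the X chromosome, which holds 948 of the protein-coding genes (4.32%). In 7 cases a pair of members lay within 200 kb of each other. Among these were Lrrc34 with Lrrc31, Grin1 with Uap1l1, Ckb with Apopt1, Ulk1 with Ttc28 and Gadd45b with Slc39a3. The closest pair, the leucine-rich repeat genes Lrrc34 (chr3:30624267-30647869) and Lrrc31 (chr3:30679058-30699843), lay 31189 bp apart on the same strand. The median length of merged exons was 4892.5 bases in the 100 genes and 3498 in all protein-coding genes. Of the 100 genes, 35 shared some exon bases with another gene, and Eps8l2, Kifc3, Mfsd12 and Mppe1 shared over 20%, with a gene on the opposite strand in each case. How strand was used in counting is not given in the sources used here, so reads of such neighbours cannot be told apart.

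Naive pluripotency factors made up 4 of the 100 genes, out of a list of 16 such factors. They were Esrrb (chr12:86361117-86521628, mm10) and Nr5a2 (chr1:136842571-136960448), both orphan nuclear receptors, the zinc finger factor Klf5 (chr14:99298691-99315036) and the grainyhead-type factor Tfcp2l1 (chr1:118627945-118685168). Tbx3 and Zfp42 scored above 1 without reaching the 100. Of the 16, 11 scored above 0, where 24.9% of all protein-coding genes did, and Klf4, Gbx2, Stat3, Prdm14 and Sall4 did not. Klf4, Gbx2 and Stat3 were lower on day 2 than in EpiLCs. Their mean CPM in EpiLCs and on day 2 was 15.1 and 5.79 for Klf4, 9.43 and 2.63 for Gbx2 and 31.0 and 21.3 for Stat3. Esrrb stood at 586, 589 and 602 CPM in ESC libraries, at 57.9, 65.8 and 64.1 in EpiLCs and at 634, 558 and 604 on day 2, 522, 558 and 485 on day 4 and 441, 456 and 434 on day 6. D2PGCLCs and ESCs overlapped, and the 3 D6PGCLC values lay below all ESC values. The fitted difference from ESCs, as a log2 fold change, was 0.07 ± 0.08 (SE, adjusted p = 0.48) (95% interval -0.09 to 0.23) on day 2 and -0.53 ± 0.08 (SE, adjusted p = 1.45e-05) on day 6. Neither passed the threshold for a call, an adjusted p under 0.05 with a log2 fold change above 1 or below -1.

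Nr5a2 stood at 111, 122 and 117 CPM in ESC libraries, at 15.98, 21.2 and 17.9 in EpiLCs and at 116, 95.6 and 128 on day 2 and 108, 95.02 and 102 on day 6. Its D2PGCLC values lay on both sides of the ESC values, and its D6PGCLC values all lay below them, by -0.31 on the log2 scale (95% interval -0.53 to -0.09). Klf5 stood at 180.1, 189 and 153 CPM in ESC libraries, at 13.6, 20.9 and 18.7 in EpiLCs and at 134, 105 and 144 on day 2, 154, 149 and 173 on day 4 and 111, 108 and 137 on day 6. Its difference from ESCs on day 6 was -0.66 ± 0.14 (SE, adjusted p = 0.000522) and was not called. Of this group, Tfcp2l1 was set apart by a level that stayed far under that of ESCs. It stood at 654, 711 and 697 CPM in ESC libraries, at 18.6, 23.3 and 21.1 in EpiLCs and at 134, 132 and 113 on day 2, 152, 155 and 102 on day 4 and 189, 197 and 167 on day 6. The groups of libraries were fully separate, with EpiLCs lowest, PGCLCs between and ESCs highest. Tfcp2l1 was below ESCs on all days, with log2 fold changes of -2.39 ± 0.13 (SE, adjusted p = 3.73e-11) on day 2 and -2.01 ± 0.13 (SE, adjusted p = 3.83e-10) on day 6. Over the whole list of 16 factors, 1 was higher and 5 were lower than in ESCs on day 2 (11.7% and 12.7% of all tested genes). On day 4, 2 were higher and 5 lower (13.9% and 10.9%), and on day 6, 5 were called, all lower (10.3%). The median log2 fold change on day 6 was -0.56 against -0.0022 over all 18090 tested genes.

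The promoter of Tfcp2l1 is shown because this gene had the lowest D2PGCLC level relative to ESCs of the 4 factors. The 250 bases before its start (RefSeq, GRCm38.p6, chr1:118627695-118627944, plus strand) hold the letters GCCNNNGGC, the core of AP-2 sites bound by the family of the transgene Tfap2c, once, with the match in capitals.
Tfcp2l1: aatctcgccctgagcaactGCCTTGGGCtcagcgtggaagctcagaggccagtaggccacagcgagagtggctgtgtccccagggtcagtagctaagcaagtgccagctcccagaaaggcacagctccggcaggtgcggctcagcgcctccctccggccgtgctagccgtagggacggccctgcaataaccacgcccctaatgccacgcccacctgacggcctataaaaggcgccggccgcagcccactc
Searched on both strands from 250 bases before to 50 bases after the start, these letters were in 26 of 102 windows of 77 members that had one (25.5%) and in 4102 of 20125 windows of all protein-coding genes (20.4%). Letters of KLF sites (GGGTGTGG) were in 1.96% of member windows and 3.68% of all windows, those of STAT sites (TTCCNGGAA) in 0.980% and 1.198%, and the octamer ATGCAAAT in 1.96% and 1.56%. The ESRRB letters TCAAGGTCA, the PRDM14 letters GGTCTCTAA and the CRE letters TGACGTCA were in none of the member windows and in 0.338%, 0.258% and 2.31% of all windows. The E-box CACGTG, a palindrome, was in 13.7% and 8.02%. The median GC content of member windows was 62.3% against 57.0% in all windows, and the median ratio of observed to expected CpG 0.700 against 0.588. A match is a description of the letters and not a bound site.

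Mras and Tcl1 were among the other naive state markers, taken from a list of 26. Mras, a RAS family GTPase, stood at 23.1, 22.9 and 23.7 CPM in ESC libraries, at 0.467, 0.4602 and 0.515 in EpiLCs and at 4.01, 3.84 and 4.71 on day 2 and 4.52, 3.39 and 4.27 on day 6. It regained the least of its ESC level among the 100 genes on day 6, 17.5%, and was below ESCs with log2 fold changes of -2.41 ± 0.17 (SE, adjusted p = 8.66e-10) on day 2 and -2.63 ± 0.17 (SE, adjusted p = 3.15e-10) on day 6. Tcl1, a coactivator of AKT kinases, stood at 49.3, 50.2 and 45.1 CPM in ESC libraries, at 10.3, 11.7 and 12.5 in EpiLCs and at 83.1, 83.9 and 78.2 on day 6. Its difference from ESCs on day 6 was 0.65 ± 0.11 (SE, adjusted p = 5.97e-05) and was not called. Over the list of 26, 5 genes were higher and 8 lower than in ESCs on day 2 (11.7% and 12.7% of all tested genes). On day 6, 5 were higher and 7 lower (15.8% and 10.3%).

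Kit (chr5:75574916-75656722), the receptor for stem cell factor that migrating germ cells need, stood at 140.4, 165 and 146 CPM in ESC libraries, at 18.9, 27.5 and 26.2 in EpiLCs and at 293, 274 and 262 on day 2, 347, 298 and 292 on day 4 and 336, 301 and 312 on day 6. All 9 PGCLC values were above all ESC values. The differences of 0.93 ± 0.11 (SE, adjusted p = 8.53e-07) on day 2, 1.04 ± 0.11 (SE, adjusted p = 2.15e-07) on day 4 and 0.96 ± 0.11 (SE, adjusted p = 5.48e-07) on day 6 straddled the fold threshold, so that Kit was called on day 4 and not on days 2 and 6. Without ESC replicate 1 or D4PGCLC replicate 1 the day 4 difference was 0.996 or 0.97 and was not called, and without ESC replicate 2 the day 6 difference was 1.02 and was called. The list of 16 genes of KIT, PI3K and AKT signalling held Kit and Tcl1. On day 2, 5 of its 15 tested genes were higher and 2 lower than in ESCs (11.7% and 12.7% of all tested genes). None of 27 germ cell genes, such as Dazl and Ddx4, was among the 100, a choice that needs a level in ESCs above that in EpiLCs. Of the 27, 5 scored above 0, where 24.9% of all protein-coding genes did.

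**Figure D2:**
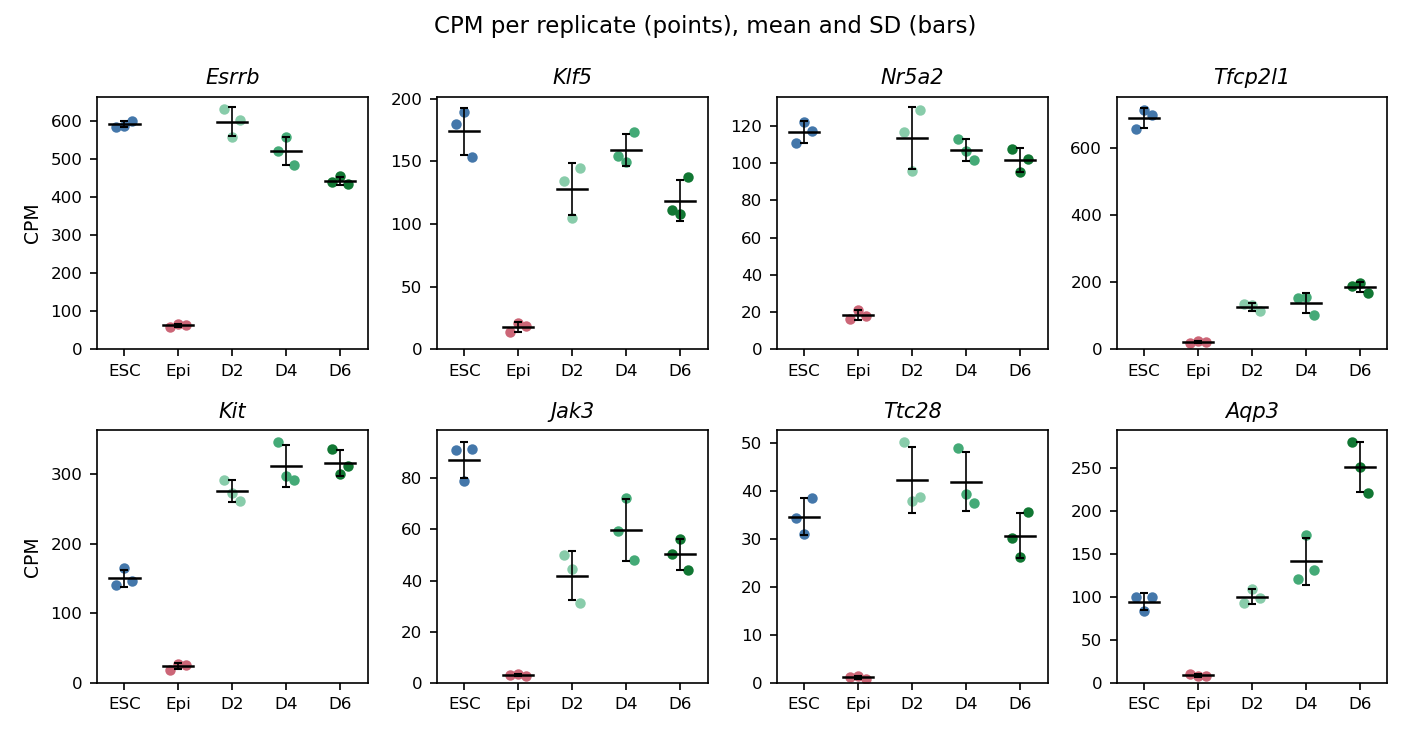
CPM of 8 genes in each replicate (points), with the mean (bar) and SD (whiskers) of 3 replicates, in ESCs, EpiLCs (Epi) and D2, D4 and D6PGCLCs. EpiLCs are lowest in each panel, as selected; Tfcp2l1 and Jak3 stay under the ESC level in PGCLCs, while Kit and, on day 6, Aqp3 lie above it.

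The highest scores belonged to genes of varied function. Ttc28 (chr5:110879803-111289780), a tetratricopeptide repeat protein, stood at 34.3, 31.04 and 38.6 CPM in ESC libraries, at 1.29, 1.47 and 0.7900 in EpiLCs and at 50.2, 37.8 and 38.7 on day 2, 48.9, 39.4 and 37.5 on day 4 and 30.1, 26.3 and 35.6 on day 6. Its ESC and D6PGCLC values overlapped. Jak3 (chr8:71676296-71690575), a kinase of cytokine receptors best known from lymphocytes, stood at 91.03, 79.01 and 91.3 CPM in ESC libraries, at 3.23, 3.34 and 2.85 in EpiLCs and at 49.98, 44.5 and 31.2 on day 2 and 50.4, 56.4 and 43.99 on day 6. It was lower than in ESCs on day 2 by -1.005 ± 0.16 (SE, adjusted p = 3.04e-05), a call at the edge of the threshold that was lost without ESC replicate 1 (-0.97), ESC replicate 3 (-0.96) or D2PGCLC replicate 3 (-0.83) and without the filter on low counts (-0.996). On day 6 the difference of -0.904 was called only without D6PGCLC replicate 2 (-1.01), among the alternatives run. None of 15 genes of LIF, JAK-STAT3 and PIM signalling was among the 100. Aqp3 (chr4:41092722-41098183), a channel for water and glycerol, stood at 100.4, 83.7 and 100.2 CPM in ESC libraries, at 10.96, 7.55 and 8.31 in EpiLCs and at 93.1, 109.8 and 98.6 on day 2, 122, 173 and 131 on day 4 and 280.3, 252 and 222 on day 6. The D2PGCLC values overlapped those of ESCs, and every D6PGCLC value was above every other library, higher than ESCs by 1.29 ± 0.14 (SE, adjusted p = 2.96e-07).

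Among the other leading genes, Slc15a1, a peptide transporter, stood at 15.9, 15.5 and 17.3 CPM in ESC libraries, at 1.69, 1.69 and 1.44 in EpiLCs and at 29.2, 29.5 and 29.9 on day 6, with little spread between replicates. Zc3hav1, an antiviral RNA-binding protein, stood at 178, 191 and 170.3 CPM in ESC libraries, at 22.5, 29.8 and 28.5 in EpiLCs and at 333, 290.4 and 342 on day 2 and 272, 255 and 261 on day 6. Both were above ESCs in all 9 PGCLC libraries without reaching the fold threshold. The smallest counts were those of AA467197, with 2, 2 and 3 counts in the EpiLC libraries. These are at or under a floor of 3 counts per library, and no fold over EpiLCs is given for it.

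To ask how closely the levels regained in PGCLCs matched those of ESCs, each day was compared with ESCs in a model of all 15 libraries, over 18090 tested genes that included all 100. The EpiLC values do not enter these differences, although a high level in both groups was a condition of the choice. In D2PGCLCs, 10 of the 100 genes were higher and 14 lower than in ESCs, where 11.7% and 12.7% of all tested genes were. In D4PGCLCs 16 were higher and 9 lower (13.9% and 10.9% of all tested genes), and in D6PGCLCs 15 were higher and 11 lower (15.8% and 10.3%). The shares among the 100 genes were thus near those of all genes at this threshold. Without the fold threshold, 62, 61 and 59 of the 100 genes were called on days 2, 4 and 6, against 49.0%, 50.8% and 53.7% of all tested genes. The median log2 fold change of the 100 genes was -0.11 on day 2, 0.08 on day 4 and -0.01 on day 6. For 63, 60 and 57 genes on days 2, 4 and 6 the 95% interval of the difference lay within 1 on the log2 scale, against 46.3%, 46.2% and 46.0% of all tested genes. The choice needed a clear level in ESCs and on all 3 days, and the tested genes were not matched to the 100 for level. These shares therefore do not show a closer match to ESCs. Against ESCs, 40 genes were called on at least 1 day (36.0% of all tested genes), 7 were lower on all 3 days (6.26%) and 5 higher on all 3 days (8.87%), and 60 were called on none.

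**Figure D3:**
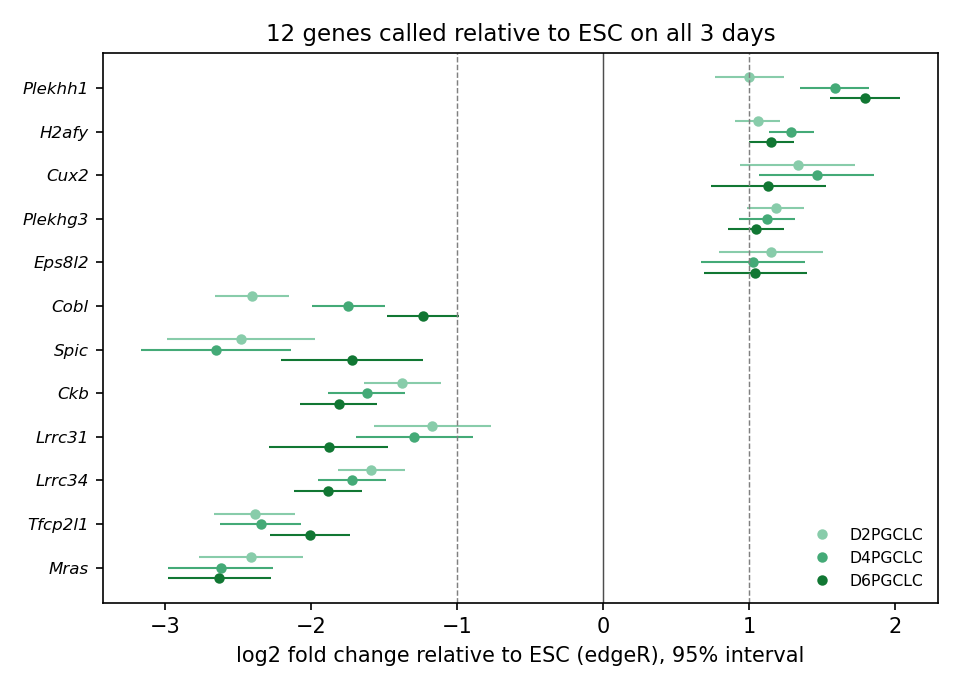
Log2 fold change relative to ESCs (x axis, points, with 95% intervals as lines) of the 12 genes called in 1 direction on all 3 days, for D2, D4 and D6PGCLCs (light to dark). Dashed lines mark the fold threshold. The 7 genes called lower, among them Mras and Tfcp2l1, lie left of -1 on each day and the 5 called higher lie right of 1, and Cobl moves towards the ESC level from day 2 to day 6.

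The 7 genes lower on all 3 days were Tfcp2l1, Mras, Spic, Cobl, Lrrc34, Lrrc31 and Ckb. Spic, an Ets family transcription factor, stood at 21.7, 24.5 and 23.6 CPM in ESC libraries, at 0.539, 0.276 and 0.7900 in EpiLCs and at 3.35, 5.05 and 3.65 on day 2 and 7.02, 9.46 and 6.27 on day 6, lower than in ESCs by -2.48 ± 0.24 (SE, adjusted p = 8.64e-08) on day 2. Cobl, an actin nucleator, stood at 172, 197 and 171 CPM in ESC libraries, at 7.97, 8.96 and 9.89 in EpiLCs and at 35.9, 25.01 and 36.7 on day 2, 55.7, 53.4 and 53.4 on day 4 and 86.1, 85.5 and 75.7 on day 6. The groups of Cobl values did not overlap, and it was lower than in ESCs by -2.41 ± 0.12 (SE, adjusted p = 9.08e-12) on day 2 and higher in D6PGCLCs than in D2PGCLCs by 1.17 ± 0.12 (SE, adjusted p = 7.32e-07). The neighbours Lrrc34 and Lrrc31 had day 6 differences of -1.89 ± 0.11 (SE, adjusted p = 9.56e-11) and -1.88 ± 0.19 (SE, adjusted p = 1.87e-07). Ckb, the brain-type creatine kinase, stood at 585, 547 and 566 CPM in ESC libraries, at 53.4, 37.3 and 42.4 in EpiLCs and at 197, 171 and 154 on day 6, lower by -1.81 ± 0.13 (SE, adjusted p = 9.93e-10). All 9 PGCLC values lay between the EpiLC and the ESC values for each of the 7, which the choice of the genes and the calls largely require.

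The 5 genes higher on all 3 days were Plekhh1, H2afy, Cux2, Eps8l2 and Plekhg3. H2afy encodes the histone variant macroH2A1, known for its place in silent chromatin. It stood at 183, 173 and 195 CPM in ESC libraries, at 61.9, 57.4 and 53.2 in EpiLCs and at 379, 358 and 369 on day 2 and 447, 441 and 437 on day 6. The replicates were close, and EpiLC, ESC and PGCLC values did not overlap, with a difference from ESCs of 1.06 ± 0.07 (SE, adjusted p = 7.24e-10) on day 2 and 1.15 ± 0.07 (SE, adjusted p = 2.55e-10) on day 6. Plekhh1, a pleckstrin homology domain protein, stood at 29.9, 30.1 and 31.7 CPM in ESC libraries, at 5.24, 5.28 and 6.29 in EpiLCs and at 65.5, 59.6 and 52.1 on day 2 and 123, 117 and 103 on day 6. It was higher than in ESCs by 1.003 ± 0.11 (SE, adjusted p = 5.66e-07) on day 2 and 1.79 ± 0.11 (SE, adjusted p = 2.71e-10) on day 6. The day 2 call was lost without either of ESC replicates 1 and 2 or D2PGCLC replicates 1 and 2, at 0.93 to 0.9996, and also with DESeq2 and with its size factors in edgeR (0.99 in both). Cux2, a homeobox factor, was higher by 1.33 ± 0.19 (SE, adjusted p = 9.08e-06) on day 2. The Eps8l2 call, for a gene with exon overlap, was lost on day 4 without ESC replicate 1 (0.99), D4PGCLC replicate 1 (0.95) or D4PGCLC replicate 3 (0.90) and on day 6 without D6PGCLC replicate 3 (0.93), and the Plekhg3 call on day 6 without ESC replicate 2 (0.98).

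The ligand genes Bmp4 and Wnt3a and the receptor gene Notch4 had their highest mean levels in D4PGCLCs. Bmp4, the ligand that induces germ cells in the embryo, stood at 27.7, 24.4 and 29.9 CPM in ESC libraries, at 4.598, 7.49 and 7.32 in EpiLCs and at 49.9, 56.8 and 55.3 on day 2, 55.6, 81.9 and 61.8 on day 4 and 30.8, 49.8 and 30.4 on day 6. It was higher than in ESCs by 1.04 ± 0.20 (SE, adjusted p = 0.000215) on day 2, a call lost without ESC replicate 2 (0.96), and by 1.27 ± 0.20 (SE, adjusted p = 2.54e-05) on day 4. On day 6 the difference was 0.33 ± 0.19 (SE, adjusted p = 0.159). Wnt3a, a WNT ligand, was a gene of low level, at 3.53, 3.19 and 4.297 CPM in ESC libraries, at 0.216, 0.245 and 0.2404 in EpiLCs and at 10.7, 13.96 and 10.02 on day 4 and 8.18, 7.16 and 1.66 on day 6. D6PGCLC replicate 3 was below the ESC libraries and the other two D6PGCLC replicates above them. Wnt3a was higher than in ESCs on day 4 by 1.63 ± 0.36 (SE, adjusted p = 0.000817) and lower in D6PGCLCs than in D4PGCLCs by -1.12 ± 0.34 (SE, adjusted p = 0.0378). The latter call was lost without D4PGCLC replicate 1 (-1.19), 2 (-0.95) or 3 (-1.22) or D6PGCLC replicate 3 (-0.70), and in a fit of just the 2 groups (-1.10, adjusted p = 0.15). Notch4 was higher than in ESCs on day 4 by 1.198 ± 0.22 (SE, adjusted p = 0.000184), a call lost without D4PGCLC replicate 2 (0.92). Bmp4 was the only member on the list of 26 ligands, receptors and feedback regulators. Of these 26, 6 were higher and 6 lower than in ESCs on day 2 (11.7% and 12.7% of all tested genes). On day 6, 6 were higher and 6 lower (15.8% and 10.3%).

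Genes of the amino acid response formed a group of 6 that was noticed among the 100. The factor ATF4 is known to switch on genes for amino acid synthesis and uptake when amino acids run short or protein folding is strained. The members were Asns, which makes asparagine, Pck2, the mitochondrial PEP carboxykinase, Slc7a1, a transporter of cationic amino acids, the stress proteins Nupr1 and Gdf15, and the growth factor Vegfa. The list of 42 genes they belong to was written after the members had been seen. Of its 43 annotated entries, 29 scored above 0, where 24.9% of all protein-coding genes did, and 11 scored above 1. Atf4 itself scored -0.10. Some genes of the list were higher in EpiLCs than in ESCs, such as Slc38a2 (mean CPM of 1056 against 165) and Ddit4 (244 against 89.5). Letters of the site bound by ATF4 with C/EBP partners, TGATGNAAN, were searched for the same reason, and they were in 5 of 102 member windows (4.90%), those of Asns, Nupr1, Pck2, Nr5a2 and Fabp3, and in 3.38% of all windows. The matches of 3 amino acid response genes are shown in capitals, since the values of these genes in each replicate are described next. They start 23 bases before the gene start in Asns (29 bases, chr6:7693214-7693242, minus strand), 111 bases before it in Nupr1 (29 bases, chr7:126625563-126625591, minus strand) and 104 bases before it in Pck2 (250 bases before the start, chr14:55540016-55540265, plus strand), all from RefSeq on GRCm38.p6. In Nupr1 and Pck2 the match is on the opposite strand.
Asns: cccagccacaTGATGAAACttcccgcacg
Nupr1: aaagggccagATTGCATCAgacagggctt
Pck2: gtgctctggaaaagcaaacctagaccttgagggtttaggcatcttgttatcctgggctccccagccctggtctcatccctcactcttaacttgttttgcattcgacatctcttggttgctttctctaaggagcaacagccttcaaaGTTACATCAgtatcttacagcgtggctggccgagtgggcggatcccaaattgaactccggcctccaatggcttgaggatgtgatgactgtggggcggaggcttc

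Asns stood at 966, 1010.0 and 963 CPM in ESC libraries, at 137, 147 and 134 in EpiLCs and at 1380.1, 948 and 1621 on day 2, 1125, 1019.6 and 1180.5 on day 4 and 817, 612 and 779 on day 6. D2PGCLC replicate 2 was below the ESC libraries and the other two D2PGCLC replicates above them, while all D6PGCLC values were below all ESC values. Asns was lower in D6PGCLCs than in D2PGCLCs by -1.01 ± 0.14 (SE, adjusted p = 1.76e-05), a call at the edge of the threshold that was lost without D2PGCLC replicate 1 (-0.98), D2PGCLC replicate 3 (-0.83) or D6PGCLC replicate 2 (-0.91). It was also lost with DESeq2 (-0.99), with its size factors in edgeR (-0.995) and in a fit of just the 2 groups (-0.99). Pck2 stood at 84.8, 79.9 and 71.6 CPM in ESC libraries, at 16.3, 23.4 and 22.3 in EpiLCs and at 290.3, 103 and 359 on day 2, 246, 214 and 272 on day 4 and 130.3, 69.02 and 162 on day 6. All D2PGCLC and D4PGCLC values were above ESCs, and D6PGCLC replicate 2 was below them. Pck2 was higher than in ESCs on day 2 by 1.73 ± 0.32 (SE, adjusted p = 0.000176) and lower in D6PGCLCs than in D2PGCLCs by -1.23 ± 0.31 (SE, adjusted p = 0.00477), and the latter call was lost without D2PGCLC replicate 3 (-0.87) or D6PGCLC replicate 2 (-0.96).

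Vegfa stood at 41.8, 35.5 and 39.2 CPM in ESC libraries, at 7.399, 9.91 and 8.11 in EpiLCs and at 115, 81.3 and 114 on day 2 and 87.04, 65.5 and 95.8 on day 6, higher than in ESCs on day 2 by 1.46 ± 0.14 (SE, adjusted p = 7.58e-08). Its day 6 difference of 0.98 was called without ESC replicate 1 (1.03) or D6PGCLC replicate 2 (1.11), and in a fit of just the 2 groups (1.007). Slc7a1 stood at 185, 192 and 198 CPM in ESC libraries, at 32.3, 31.05 and 34.97 in EpiLCs and at 236, 75.7 and 289.9 on day 2, 223, 175 and 189 on day 4 and 179, 106 and 213 on day 6. Nupr1 stood at 45.2, 41.7 and 37.8 CPM in ESC libraries, at 4.02, 5.37 and 6.05 in EpiLCs and at 34.1, 15.2 and 56.4 on day 2 and 21.2, 9.03 and 38.1 on day 6, and its day 6 differences from ESCs and D2PGCLCs were not called with all libraries. With 1 library left out, D6PGCLC replicate 3, the 2 Nupr1 differences were -1.57 and -1.41 and were called, and without D2PGCLC replicate 2 the second was -1.17 and was called. Gdf15 stood at 6.301, 8.42 and 7.96 CPM in ESC libraries, at 1.401, 1.75 and 1.03 in EpiLCs and at 9.003, 3.49 and 12.8 on day 2 and 13.9, 5.24 and 14.4 on day 6.

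In each of these 6 genes, replicate 2 was the lowest of the 3 replicates in D2PGCLCs, D4PGCLCs and D6PGCLCs. The whole list of 42 genes was lowest in replicate 2 for 42 of 42 genes in D2PGCLCs, 32 of 42 in D4PGCLCs and 39 of 42 in D6PGCLCs, where replicate 2 was lowest for 34.2%, 35.8% and 31.4% of all tested genes. In ESCs and EpiLCs 14 and 10 of the 42 genes were lowest in replicate 2. The summed level of the list was 11032, 6976 and 12941 CPM in D2PGCLC replicates 1, 2 and 3 and 7383, 5410.3 and 8079 CPM in D6PGCLCs, against 7383 to 7493 CPM in ESCs and 5633 to 5904 CPM in EpiLCs. Over the list, 15 of 42 genes were called in D2PGCLCs relative to ESCs, all higher, where 11.7% of all tested genes were higher. In D6PGCLCs relative to D2PGCLCs 10 were called, all lower, where 2.75% of all tested genes were lower. The median log2 fold changes of the list were 0.66 and -0.72, against -0.00035 and 0 over all tested genes. These fits pool replicate 2 with the other replicates. What set replicate 2 apart was not tested.

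**Figure D4:**
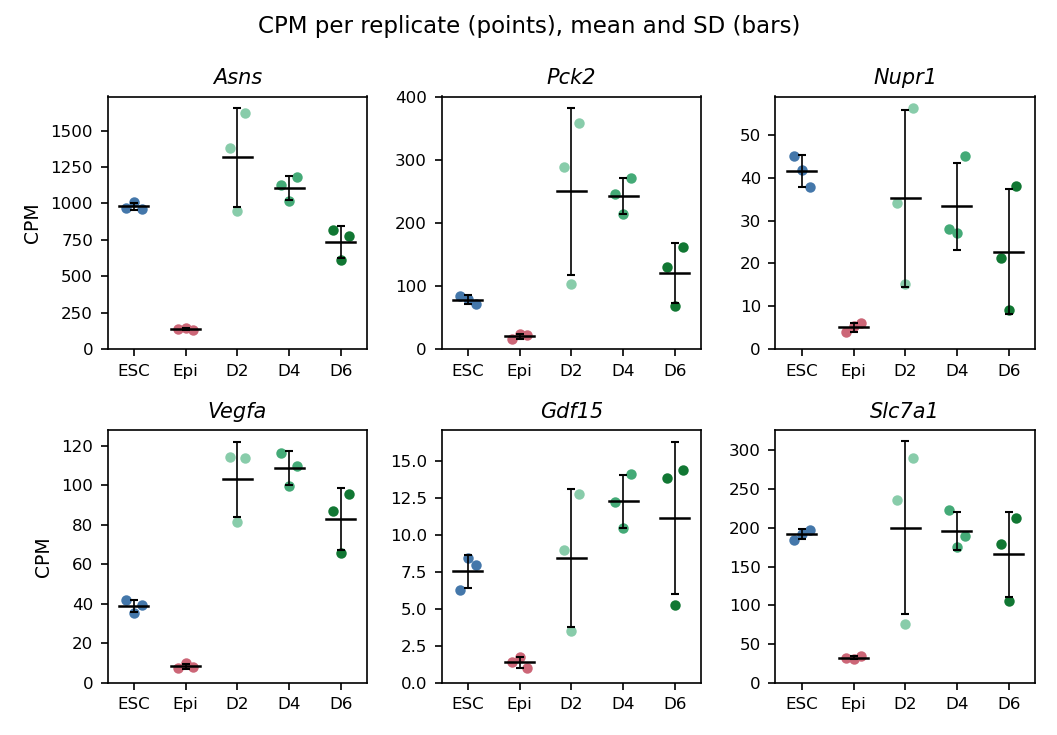
CPM of 6 amino acid response genes in each replicate (points, replicates 1 to 3 from left to right), with the mean (bar) and SD (whiskers) of 3 replicates, in ESCs, EpiLCs (Epi) and D2, D4 and D6PGCLCs. EpiLCs are lowest in each panel, as selected, and the middle point, replicate 2, is the lowest of the D2, D4 and D6PGCLC points in all 6 panels.

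Between the days of PGCLC culture fewer genes were called with the fold threshold than relative to ESCs, among the 100 and among all tested genes alike. Relative to D2PGCLCs, 10 of the 100 genes were higher and 3 lower in D6PGCLCs, where 10.9% and 2.75% of all tested genes were. In D4PGCLCs relative to D2PGCLCs, 4 were higher and 0 lower by edgeR (2.56% and 0.376% of all tested genes), and in D6PGCLCs relative to D4PGCLCs 0 were higher and 3 lower (2.29% and 0.785%). For both counts of 0, DESeq2 also called 0. At an unadjusted p under 0.05 without the fold threshold, 36 genes were higher and 7 lower in D4PGCLCs than in D2PGCLCs (15.0% and 11.2% of all tested genes), and 17 were higher and 27 lower in D6PGCLCs than in D4PGCLCs (13.3% and 14.3%). By the same adjusted p without the fold threshold, 25 genes differed in D4PGCLCs relative to D2PGCLCs (11.9% of all tested genes), 23 in D6PGCLCs relative to D4PGCLCs (12.8%) and 60 in D6PGCLCs relative to D2PGCLCs (37.7%). With the fold threshold, the 10 genes higher in D6PGCLCs than in D2PGCLCs included Cox6b2, Susd1, Ly6a, Fads6, Med12l, Mymx, Cobl, Aqp3 and Zfhx2.

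Cox6b2, a cytochrome c oxidase subunit known from testis, stood at 21.2, 16.9 and 18.8 CPM in ESC libraries, at 3.81, 3.498 and 5.98 in EpiLCs and at 23.2, 18.7 and 19.3 on day 2, 42.3, 33.3 and 76.3 on day 4 and 47.7, 61.1 and 90.3 on day 6. D2PGCLC values overlapped those of ESCs, and D6PGCLC values were all above both, by 1.54 ± 0.26 (SE, adjusted p = 0.000137) relative to D2PGCLCs. On day 4 it was higher than in ESCs by 1.395 and higher than in D2PGCLCs by 1.24, but without D4PGCLC replicate 3 the values were 0.98 and 0.82 and were not called. Stag3, a meiotic cohesin subunit, stood at 35.04, 32.1 and 37.2 CPM in ESC libraries, at 8.26, 10.2 and 9.62 in EpiLCs and at 50.2, 43.8 and 44.2 on day 2 and 78.6, 79.3 and 68.8 on day 6. It was higher than in ESCs on day 6 by 1.01 ± 0.11 (SE, adjusted p = 5.19e-07), a call lost without ESC replicate 2 (0.95) or D6PGCLC replicate 2 (0.95). Med12l, a Mediator subunit, and Fabp3, a fatty acid-binding protein, were higher than in ESCs on day 6 by 1.68 ± 0.17 (SE, adjusted p = 1.25e-07) and 1.61 ± 0.19 (SE, adjusted p = 1.25e-06), and the day 4 call of Fabp3 (1.21) was lost without D4PGCLC replicate 3 (0.84).

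A few genes were below ESCs on day 2 and back near the ESC level by day 6. Mymx, which encodes the muscle fusion peptide myomixer, stood at 29.5, 28.1 and 28.6 CPM in ESC libraries, at 0.718, 0.767 and 1.31 in EpiLCs and at 12.4, 14.1 and 11.8 on day 2, 25.97, 34.97 and 37.96 on day 4 and 37.3, 35.3 and 24.1 on day 6. The D2PGCLC values did not overlap those of ESCs (-1.12 ± 0.18 (SE, adjusted p = 2.97e-05)) or of D6PGCLCs. Ly6a, the surface protein Sca-1, stood at 26.1, 22.2 and 26.3 CPM in ESC libraries, at 0.503, 0.828 and 0.0687 in EpiLCs and at 7.84, 7.92 and 9.48 on day 2, 12.2, 18.8 and 14.98 on day 4 and 21.00, 24.8 and 18.9 on day 6, higher in D6PGCLCs than in D2PGCLCs by 1.19 ± 0.24 (SE, adjusted p = 0.000813). The opposite course was seen in Pla2g4e, a phospholipase A2 family member, at 8.12, 10.9 and 8.06 CPM in ESC libraries, at 0.611, 0.4602 and 0.515 in EpiLCs and at 37.1, 31.3 and 35.6 on day 2, 29.1, 22.03 and 25.5 on day 4 and 13.9, 8.12 and 10.4 on day 6. It was higher than in ESCs on day 2 by 2.003 ± 0.17 (SE, adjusted p = 1.29e-08) and lower in D6PGCLCs than in D2PGCLCs by -1.85 ± 0.17 (SE, adjusted p = 1.92e-07), and on day 6 it overlapped ESCs.

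Grin1, an NMDA receptor subunit, stood at 43.9, 41.6 and 44.1 CPM in ESC libraries, at 2.16, 1.66 and 1.96 in EpiLCs and at 11.2, 23.6 and 7.81 on day 2, 14.7, 41.5 and 11.8 on day 4 and 25.2, 47.7 and 17.3 on day 6. Replicate 2 was the highest of the 3 replicates on each day, unlike in the amino acid response genes. It was lower than in ESCs on day 2 by -1.56 ± 0.43 (SE, adjusted p = 0.00547). The kainate receptor subunit Grik3 was lower by -1.51 ± 0.13 (SE, adjusted p = 1.62e-08) on day 2. The tau gene Mapt and the postsynaptic scaffold gene Dlgap3 were called in none of the comparisons with ESCs, with mean CPM of 41.4 and 92.4 in ESCs, 7.84 and 19.7 in EpiLCs and 41.3 and 134 on day 6.

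Across replicates, the 100 genes had a median coefficient of variation of 6.14% in ESCs and 15.4% in EpiLCs, and of 11.7%, 12.4% and 13.7% on days 2, 4 and 6, against 10.2%, 13.0%, 13.5%, 15.3% and 14.4% over all tested genes. The widest spread in D2PGCLCs (58.6%) and D6PGCLCs (64.0%) was that of Nupr1, and in D4PGCLCs (72.4%) that of Grin1. D2PGCLC replicate 2 was the lowest of its group for 57 of the 100 genes (34.2% of all tested genes) and D6PGCLC replicate 2 for 47 (31.4%). D6PGCLC replicate 1, the library with fewer genes detected, was the lowest of its group for 14 of the 100 genes (40% of all tested genes). It was the highest for 43, and the share of all tested genes was not counted there. Without it, 98 of the 100 genes were again chosen. Among calls with all libraries against ESCs or D2PGCLCs, that of Unc13d on day 6 was the one lost without D6PGCLC replicate 1 (-0.93), and in D6PGCLCs relative to D4PGCLCs that of Pck2 was lost (-1.12 with all libraries and -1.17 without), as it was without D4PGCLC replicate 3 or D6PGCLC replicate 2.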

How the data were processed

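RNA-seq libraries of ESCs, EpiLCs and sorted PGCLCs were compared by gene. The authors made stranded libraries (NEBNext Ultra II Directional) and deposited raw read counts per ENSEMBL gene on mm10, without normalization. The submitters' processing notes name Trim Galore, FastQC and STAR. The counting tool and its use of strand are not given in the sources used here. Symbols, coordinates and gene types came from GENCODE M21, which covered all 55536 identifiers, and promoter windows from RefSeq (GRCm38.p6).

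The members and the gene lists were chosen with earlier results of these data known. CPM used column totals and 1 was added before taking log2. Differences were fitted by quasi-likelihood in edgeR 4.0.16 under R 4.3.3. The filterByExpr filter (minimum 10 counts) left 18090 genes, libraries were scaled by TMM, each group had its own coefficient in 1 model of the 15 samples, and p was adjusted by Benjamini-Hochberg. Calls needed an adjusted p under 0.05 and a change of more than 1 on the log2 scale, up or down. The fit was tested on simulated counts. A floor of 3 counts was 0.133 CPM in the shallowest library and less in all others. Named genes were the 15 highest scores, members on a list, the 4 highest and 4 lowest called fold changes in D2PGCLCs and D6PGCLCs relative to ESCs and between these days, the 3 genes on either side of the threshold, members within 200 kb of each other and transgenes. Further members, among them H2afy, Ckb, Stag3, Fabp3, Notch4, Grin1, Grik3, Mapt, Dlgap3 and the amino acid response genes, were named after their values were seen. A few members are counted but not reported by name here. Alternatives were DESeq2 (1.42.0), its size factors in edgeR, a fit without the filter, a block for the replicate number, a fit of just the 2 groups, calls without the fold threshold and leaving out each replicate. For the choice of genes they were other added values, TMM, medians, the mean in place of the lowest group and all annotated genes.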

Additional observations from a re-analysis of the deposited data

Results flagged for a closer look

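For 5 genes the fitted differences from ESCs lay on opposite sides of 0 on days 2 and 6 while the difference between these days was itself called. Relative to D2PGCLCs, the log2 fold change in D6PGCLCs was 1.17 for Mymx (-1.12 relative to ESCs on day 2 and 0.06 on day 6), -1.01 for Asns (0.48 and -0.52), 1.19 for Fads6 (-0.10 and 1.09), 1.35 for Susd1 (-0.13 and 1.22) and 1.14 for Zfhx2 (-0.94 and 0.20). The adjusted p of the difference between the days was 4.29e-05, 1.76e-05, 1.34e-06, 4.35e-06 and 8.94e-06 in the same order (edgeR). The Asns call was at the edge of the fold threshold and was lost under 7 of the alternatives. Groups had 3 replicates, so no single library was tested as standing apart.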

How the results depend on the processing

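The 100 genes depended most on how the other groups entered the score. With the mean of the 4 other groups in place of the lowest, 66 of the 100 were chosen again, against 74 to 97 under the other definitions, 92 to 100 when 1 library was left out and 90 to 93 when a replicate number was left out of every group. Without the fold threshold, the genes called rose to 62 on day 2, 61 on day 4 and 59 on day 6 relative to ESCs, to 25 and 23 in D4PGCLCs relative to D2PGCLCs and D6PGCLCs relative to D4PGCLCs, and to 60 in D6PGCLCs relative to D2PGCLCs (11.9% to 53.7% of all tested genes). With 1 library left out, the counts were 22 to 24, 24 to 28, 26 to 27, 3 to 5, 1 to 3 and 13 to 16 for days 2, 4 and 6 relative to ESCs, D4PGCLCs relative to D2PGCLCs, D6PGCLCs relative to D4PGCLCs and D6PGCLCs relative to D2PGCLCs, and the count of 1 was that without D4PGCLC replicate 3. No named difference changed sign, and 74 of the 95 calls of members were kept in every alternative run. Samples with the same replicate number deviated together with a mean correlation of 0.0358 (-0.0285 to 0.208 over 30 pairs, 6 above 0.1), against -0.0179 for other numbers (-0.204 to 0.0714 over 60 pairs, 0 above 0.1), and 9 of 15 correlated best with their own number. This is a hint from the data and not from the design, and the numbers were not taken as pairs, since that asked for every pair above 0.1. With the replicate number as a block, 23, 26, 27, 4, 3 and 12 members were called in the same order. The calls of Asns between days 2 and 6 (-0.997), Plekhh1 on day 2 (0.996) and Eps8l2 on day 4 (0.998) were lost at the fold threshold. The call of Nupr1 on day 6 relative to ESCs was gained (-1.19). Calls gained on day 4 relative to ESCs are counted here but not named. Without the filter, adjusted p became much smaller at nearly the same fold change, as for Nupr1 on day 6 (0.0435 to 2.51e-13), and the cause was not tested. Depth limits 1 gene, which had at most 3 counts in every EpiLC library.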

Other observations

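Further transcription factors among the 100 included Tead4, which is known from the trophectoderm, Zfp296, Klf15, Meis2 and Rreb1. Tead4 had mean CPM of 39.4 in ESCs, 4.23 in EpiLCs, 22.1 in D2PGCLCs and 39.5 in D6PGCLCs, and Zfp296 of 41.4, 8.902, 46.9 and 37.8. None of these 5 factors was called relative to ESCs on any day. Meis2 was higher in D4PGCLCs than in D2PGCLCs by 1.07 ± 0.26 (SE, adjusted p = 0.011), a call lost without D2PGCLC replicate 2 (0.81) or D4PGCLC replicate 3 (0.87). Gjc1, which encodes a gap junction protein, had mean CPM of 149 in ESCs, 40.4 in EpiLCs and 159 in D6PGCLCs. Ulk1, the kinase that starts autophagy, had mean CPM of 254 in ESCs, 53.04 in EpiLCs and 313 in D6PGCLCs, and Ak4, a mitochondrial adenylate kinase, 287, 53.6 and 405. The zinc finger gene Zfp607b stayed below ESCs and was lower on day 6 by -1.47 ± 0.10 (SE, adjusted p = 1.04e-09). No member was on the lists of 15 2-cell-like genes, 15 p53 targets, 25 DNA methylation and chromatin regulators or the metabolism list.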
